A study of Mus musculus with 30 samples.

Results

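The interferon-inducible GTPases described here are 10 mouse genes that were followed in every RNA-seq library of the study: Iigp1, Gm4951 and Gm4841 on chromosome 18, Irgm1, Irgm2, Igtp and Ifi47 on chromosome 11, and Gbp2, Gbp3 and Gbp7 on chromosome 3. They were chosen by name, with earlier genotype results of these same data known, out of 25865 gene symbols in the table of naive and activated cells and 25860 in the table of forskolin-treated cells. All 10 were present in both tables, and 10 of 10 passed the low-count filter in each. The cells were CD4 T cells taken from the spleen and lymph nodes, either of control mice (WT) or of mice carrying the label PKAKO (KO), where PKA is the cyclic AMP-dependent protein kinase. Naive cells were purified with a CD4 kit and by flow sorting, activated cells had been exposed to anti-CD3 and anti-CD28 for 3 days, and forskolin cells, also titled naive by the submitters, had been kept in IL-7 for 3 days and then given forskolin, an activator of adenylyl cyclase, at 1 ug/mL for 4 hours in both genotypes. RNA was measured in each of these conditions, and ATAC-seq read open chromatin in the naive and the activated cells, with 3 libraries in each of the 10 groups. The sources used here do not give which PKA gene was removed or by what driver, the strain and age of the mice, or whether libraries came from separate animals. The p-values therefore measure the spread between these libraries, which may be technical, and no effect of forskolin itself can be tested because no untreated IL-7 group is part of the data.

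Interferon-inducible GTPases are enzymes of cell-autonomous immunity: cells exposed to interferon gamma make them, and they attack the vacuoles in which intracellular parasites and bacteria live. The immunity-related GTPases (IRG) divide into effectors such as Iigp1 (also called Irga6) and Ifi47 (Irgd), which load onto the vacuole membrane, and the regulators Irgm1, Irgm2 and Igtp (Irgm3), which reside on the cell's own membranes and hold the effectors inactive there. The guanylate-binding proteins (GBP), here Gbp2, Gbp3 and Gbp7, are larger relatives that assemble on pathogen vacuoles. Transcription of both families is classically driven by interferon-activated transcription factors such as IRF1, through the gamma-activated site (GAS) and the interferon-stimulated response element (ISRE). Gm4951 (Ifgga2) and Gm4841 (Ifgga3) are annotated relatives of Iigp1 and are less studied.

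By the RefSeq annotation of GRCm38.p6, the assembly whose mm10 name the submitters' processing notes give for the files, the chromosome 18 genes lie near one another at 18:60212004-60248440 (Gm4951), 18:60268301-60273267 (Gm4841) and 18:60373616-60392634 (Iigp1).

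On chromosome 11 the genes form separate groups, with Irgm1 at 11:48865245-48871420 and Ifi47 at 11:49076587-49096987, and Igtp at 11:58199556-58207592 beside Irgm2 at 11:58214977-58222783. The GBP genes lie together at 3:142530336-142550151 (Gbp7), 3:142560016-142573213 (Gbp3) and 3:142620663-142638008 (Gbp2).

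The RefSeq promoter table held 7 of the 10 genes, and the 250 bases before the start of 5 of them are shown because they hold the interferon motifs and sit at or beside the ATAC sites described below. Capitals mark each match to the ISRE core (GAAA, any 2 bases, then GAAA) or to the GAS core TTCNNNGAA, searched on both strands, and overlapping matches run together. The sequences are RefSeq, GRCm38.p6, on the strand of the gene, from 5′ to 3′.
Irgm1: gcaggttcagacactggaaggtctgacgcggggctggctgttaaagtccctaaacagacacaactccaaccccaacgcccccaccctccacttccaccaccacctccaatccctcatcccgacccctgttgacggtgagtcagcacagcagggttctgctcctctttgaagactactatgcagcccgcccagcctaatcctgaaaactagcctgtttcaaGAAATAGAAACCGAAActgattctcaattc
Igtp: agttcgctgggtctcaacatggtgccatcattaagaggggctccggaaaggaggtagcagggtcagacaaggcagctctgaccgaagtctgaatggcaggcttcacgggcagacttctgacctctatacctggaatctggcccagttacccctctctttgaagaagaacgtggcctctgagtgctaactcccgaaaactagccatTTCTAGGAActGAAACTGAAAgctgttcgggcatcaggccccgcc
Irgm2: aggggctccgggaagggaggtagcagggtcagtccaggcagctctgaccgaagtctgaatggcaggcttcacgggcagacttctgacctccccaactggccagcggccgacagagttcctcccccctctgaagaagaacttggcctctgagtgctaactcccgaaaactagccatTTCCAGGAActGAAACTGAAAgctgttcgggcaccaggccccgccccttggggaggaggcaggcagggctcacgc
Gbp2: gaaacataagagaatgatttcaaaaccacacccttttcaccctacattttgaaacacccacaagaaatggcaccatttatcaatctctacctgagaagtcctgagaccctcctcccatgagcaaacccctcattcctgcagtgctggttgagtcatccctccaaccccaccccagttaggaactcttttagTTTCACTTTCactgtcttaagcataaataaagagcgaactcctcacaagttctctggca
Gbp7: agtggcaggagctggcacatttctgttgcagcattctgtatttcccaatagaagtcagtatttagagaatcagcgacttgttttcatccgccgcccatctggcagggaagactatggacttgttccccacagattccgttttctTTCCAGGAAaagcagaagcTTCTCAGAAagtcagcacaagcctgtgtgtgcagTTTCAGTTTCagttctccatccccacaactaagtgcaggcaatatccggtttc

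The ISRE core was found in 6 of the 7 genes (Irgm1, Irgm2, Igtp, Gbp2, Gbp3 and Gbp7), against 2.98% of 32851 promoters of the same 250 bases in the table. The GAS core was in 3 of 7 (Irgm2, Igtp and Gbp7), against 7.02%, and the cyclic AMP response element TGACGTCA was in 0 of 7, against 1.55%. Ifi47 had none of these motifs in the 250 bases. Igtp and Irgm2 share almost the same block, with the GAS core ahead of the ISRE core, and their 250 bases were 90.2% identical over 215 aligned positions with 70 gapped bases. Other pairs of IRG genes or of GBP genes shared between 57.3% and 66.3%, and pairs of an IRG with a GBP gene between 55.8% and 64.8%. A match is a description of letters and does not show binding.

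RNA libraries held between 7665955 and 11968094 counts, so that 3 counts, the most that a count of 0 allows, are 0.236 to 0.398 CPM (counts as a rate per library total, each total scaled with a TMM factor, a trimmed mean of ratios). Floors and counting intervals cover counting error only. Prkaca, which encodes a catalytic PKA subunit, was at 32.1 to 53.3 CPM in the 9 WT libraries and 0.867 to 3.88 CPM in the 9 KO libraries, and separated the genotypes in every condition. The CD4 T cell identity held by its markers: the summed level of Cd3d, Cd3e, Cd3g, Cd4, Trac and Lck was between 1791 and 4776 CPM in every library. Since the deposited tables do not say how reads shared by near-identical genes were assigned, the split of reads among Iigp1, Gm4951, Gm4841 and F830016B08Rik, between Igtp and Irgm2, and among the GBP genes is uncertain.

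In naive cells the chromosome 18 genes stood higher in KO, and the members on other chromosomes were close to WT. Iigp1 was at 48.9, 36.9 and 47.4 CPM in the WT libraries and at 91.4, 93.6 and 111 CPM in the KO libraries. The groups did not overlap, and the log2 fold change of KO over WT was 1.16 ± 0.10 (SE, n = 3 against 3). Gm4951 had 1, 1 and 2 counts in WT and 51, 45 and 65 counts in KO. It was near the detection limit in each WT library, and the ratio of the summed and scaled counts was 42.1, with an exact conditional 95% interval from 16.1 to 156. Gm4841 had 4, 2 and 2 counts in WT and 61, 47 and 79 in KO, a ratio of 24.5 with an interval from 12.2 to 57.5. Naive KO replicate 3 was the highest of the KO libraries for each of these 3 genes.

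**Figure D1:**
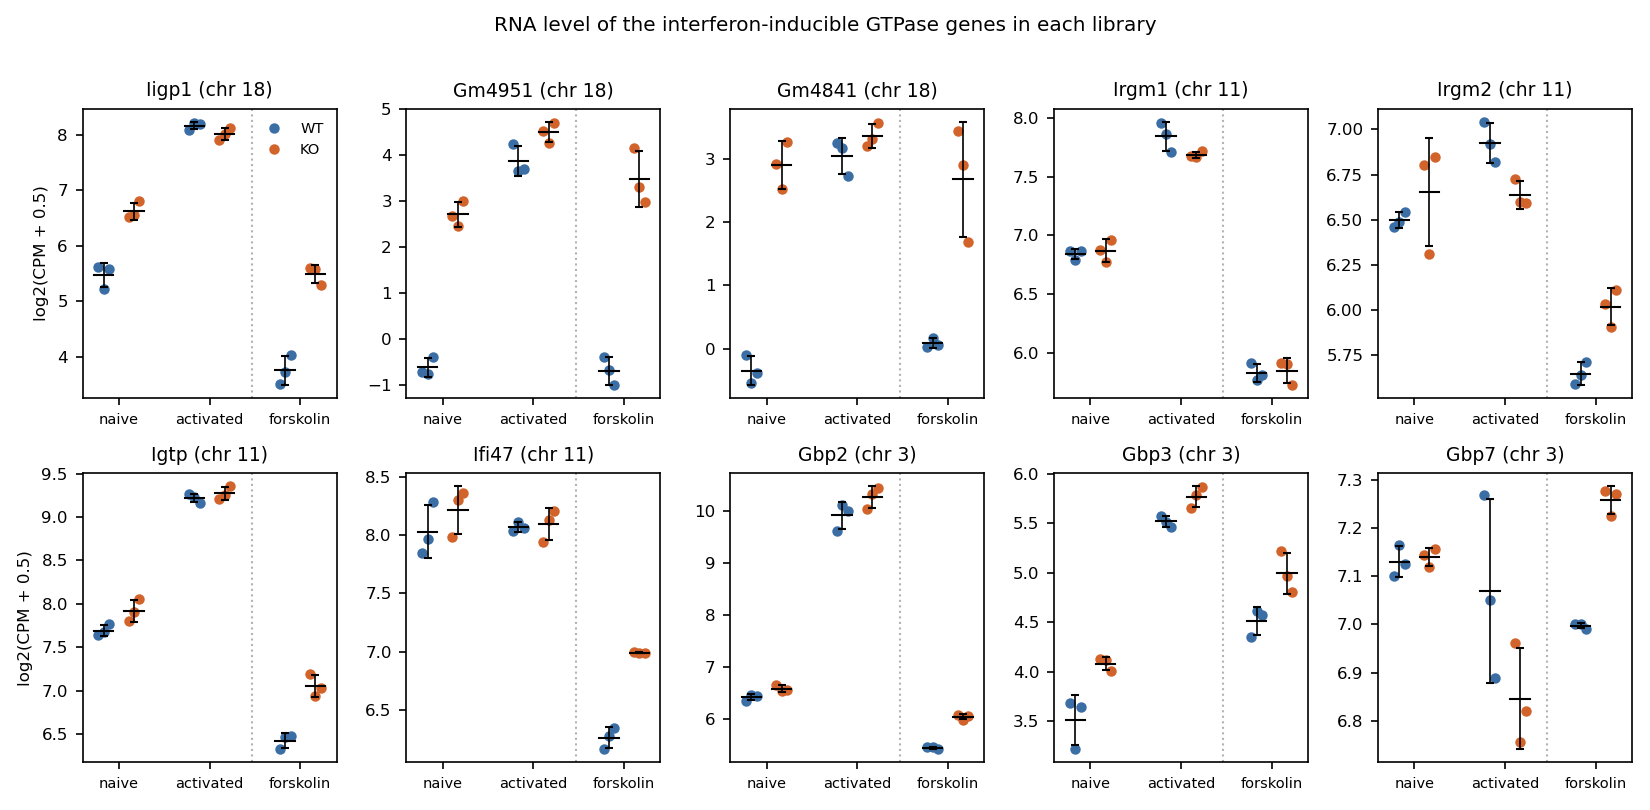
RNA level of the 10 genes in each library, as log2(CPM + 0.5), with WT in blue and KO in orange; the bar is the mean and the whisker the SD of 3 libraries, the vertical axes differ between panels, and the dotted line separates the forskolin table, which was scaled on its own. Iigp1, Gm4951 and Gm4841 are apart by genotype in naive and forskolin cells and closer together in activated cells.

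The regulators on chromosome 11 differed little between naive genotypes. Irgm1, which protects the cell's own membranes, was at 116, 110.2 and 116 CPM in WT and 117, 109 and 124 CPM in KO. Irgm2 was at 87.5, 89.3 and 92.8 CPM in WT and 111, 78.8 and 115 CPM in KO, and Igtp at 199, 204 and 217 CPM in WT against 222, 239 and 266 CPM in KO. Of these genes, Igtp was the one whose groups did not overlap, with a log2 fold change of 0.23 ± 0.07. The effector Ifi47 ran from 229 to 310.4 CPM in WT and from 252 to 328 CPM in KO, and its groups overlapped.

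Among the GBP genes of naive cells, Gbp3 was at 12.3, 8.79 and 11.95 CPM in WT and 17.0, 16.9 and 15.6 CPM in KO, a log2 fold change of 0.59 ± 0.12. Gbp2 was at 80.8 to 87.5 CPM in WT and 91.8 to 100.1 CPM in KO, and Gbp7 at 137 to 143 CPM in WT and 139 to 142 CPM in KO. Gbp2 and Gbp3 did not overlap between genotypes, and Gbp7 did. In the edgeR fit 3 of the 10 genes, those of chromosome 18, passed the adjusted p threshold of 0.05 in the higher direction, where 0.125% of the 11980 genes tested did, and 0 in the lower, where 0.117% did. The groups did not overlap, with KO higher, for 6 of 10, against 4.24% of all genes. These genotype values are among those the genes were chosen with in view, so they are a description. The median log2 fold change was 4.56 for the chromosome 18 genes and 0.18 for the other 7, beside -0.01 for all genes tested.

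Some marker sums of other cells did not overlap between the genotypes of naive libraries. The summed level of 4 B cell markers (Cd79a, Cd79b, Ms4a1 and Pax5), each with counts in both genotypes, was 2.405 to 4.12 CPM in WT and 5.54 to 7.15 CPM in KO. The sum of 8 myeloid and dendritic markers was 9.73 to 12.3 CPM in WT, with Cd14 and Siglech at 0, and 6.92 to 9.76 CPM in KO, with Csf1r and Siglech at 0. The 2 CD8 T cell markers summed to 24.2 to 25.5 CPM in WT and 26.7 to 28.7 CPM in KO, and the 2 regulatory T cell markers to 6.47 to 6.81 and 6.92 to 11.2 CPM. The myeloid sums overlapped and the others did not. The part of such cells in the genotype difference was not tested. In bulk RNA, more cells that express a gene and more RNA of it per cell cannot be told apart.

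After 3 days of activation the genotypes were close for Iigp1 and Gm4841 too. Iigp1 was at 272, 296 and 293 CPM in WT and 240.2, 259.6 and 279 CPM in KO, so that the KO libraries lay at the lower side and overlapped WT. Gm4951 was at 18.5, 12.02 and 12.6 CPM in WT and 22.6, 18.8 and 25.7 CPM in KO, with every KO library above every WT library and a log2 fold change of 0.64 ± 0.17. Gm4841 was at 9.02, 8.47 and 6.10 CPM in WT and 8.67, 9.41 and 11.3 CPM in KO, and overlapped. Gm4951 alone of the 10 passed the threshold, in the higher direction, against 5.89% of all genes. It did not pass when activated KO replicate 3, activated KO replicate 1, activated WT replicate 2 or activated WT replicate 3 was left out. Without activated KO replicate 3 no other gene of the 10 passed, without activated WT replicate 3 Gbp7 did, lower in KO, and without activated KO replicate 1 or activated WT replicate 2 Gbp2 did, higher in KO. Gbp2 was at 788, 1114 and 1022 CPM in WT and 1045, 1287 and 1384 CPM in KO (0.35 ± 0.11), and overlapped. KO was higher in each pair with the same replicate number, and with the number as a block 2 of the 10 were called higher, Gm4951 and Gbp2. Among the other members, Irgm2 was lower in every KO library (95.98 to 105.5 CPM) than in every WT library (112 to 131 CPM), with a log2 fold change of -0.29 ± 0.11. Gbp3 was higher in every KO library (49.9 to 57.8 CPM against 43.8 to 47.4 CPM, log2 fold change 0.25 ± 0.10). In all, 2 of 10 did not overlap with KO higher and 1 with KO lower, against 18.9% and 19.7% of all genes. The 4 B cell markers summed to 1.47 to 2.82 CPM in activated WT libraries and 4.88 to 7.87 CPM in KO, with Pax5 at 0 in KO, and their part was not tested.

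In forskolin-treated cells the chromosome 18 genes were again higher in KO, and here most members on other chromosomes were higher in KO as well. Iigp1 was at 10.9, 12.7 and 15.8 CPM in WT and 47.8, 47.5 and 38.9 CPM in KO, a log2 fold change of 1.75 ± 0.12. Gm4951 had 2, 1 and 0 counts in WT and 205, 89 and 82 counts in KO, a ratio of 95.9 with an exact conditional interval from 32.6 to 467. Gm4841 had 4, 5 and 5 counts in WT and 123, 66 and 30 counts in KO, a ratio of 11.97 with an interval from 6.98 to 22.3. None of these groups overlapped, although the KO libraries differed among themselves, with replicate 1 highest and replicate 3 lowest for each of the 3 genes.

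Outside chromosome 18 the forskolin differences were smaller and tighter. Ifi47 was at 71.1, 77.1 and 80.9 CPM in WT and 127, 126 and 127 CPM in KO, with a log2 fold change of 0.73 ± 0.05. Igtp was at 79.7, 88.1 and 88.5 CPM in WT and 145, 123 and 131 CPM in KO, and its log2 fold change was 0.64 ± 0.06. Gbp2 ran from 42.0 to 43.1 CPM in WT and from 62.5 to 67.0 CPM in KO (0.61 ± 0.06 on the log2 scale), Gbp3 from 19.95 to 24.0 and from 27.5 to 36.7 CPM (0.50 ± 0.10), and Gbp7 from 127 to 128 and from 149 to 155 CPM (0.26 ± 0.04). Irgm2 ran from 47.65 to 52.0 CPM in WT and from 59.5 to 68.5 CPM in KO (0.37 ± 0.06). Irgm1 was the member with no such gap, at 59.6, 53.85 and 55.7 CPM in WT and 59.8, 59.2 and 52.4 CPM in KO (0.02 ± 0.06).

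By count, 9 of 10 were called higher in forskolin KO cells, against 19.7% of the 11658 genes tested, and the same number did not overlap, against 24.5%. The median log2 fold change was 3.54 on chromosome 18 and 0.50 elsewhere, beside -0.003 for all genes. Naive, activated and forskolin libraries are different samples, but the forskolin table was scaled on its own, so its levels are not compared with the others.
Marker sums also differed in these libraries: Foxp3 and Ikzf2, markers of regulatory T cells, summed to 19.3 to 23.3 CPM in WT and 43.7 to 48.1 CPM in KO. B cell markers summed to 2.38 to 3.14 CPM in WT, with Ms4a1 and Pax5 at 0, and 3.78 to 4.65 CPM in KO. The 2 CD8 T cell markers summed to 16.3 to 19.4 CPM in WT and 22.1 to 26.3 CPM in KO. The T cell markers summed to 2860 to 2932 CPM in WT and 2260 to 2338 CPM in KO. Their part in the differences was not tested.

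**Figure D2:**
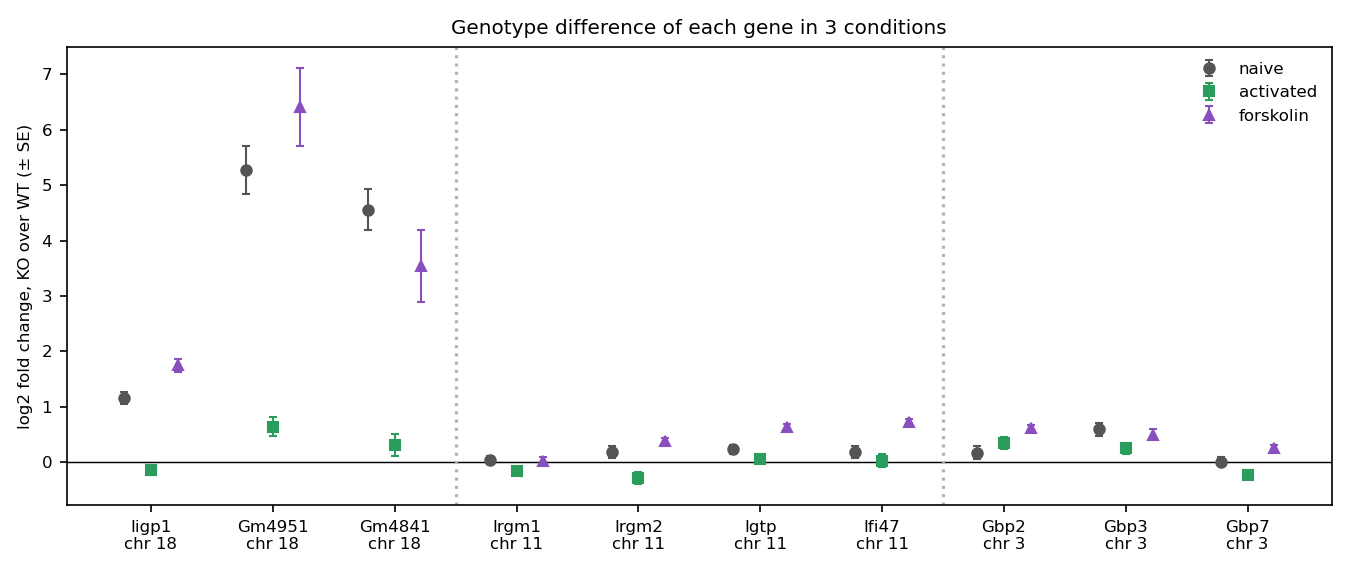
Log2 fold change of KO over WT for each gene in naive (circle), activated (square) and forskolin (triangle) cells, with SE as whiskers (3 libraries per group). On chromosome 18 the naive and forskolin values run from 1.16 to 6.41 and the activated ones from -0.14 to 0.64; on chromosomes 11 and 3 all values lie between -0.29 and 0.73. The fitted values of Gm4951 and Gm4841 rest on few WT counts.

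Activation was compared in each genotype. It is not the contrast the genes were chosen on, but it shares the naive libraries with it, and the chromosome 18 genes stand out by their naive values, so their activation values are a description with no test. Of the other 7 genes, 5 rose in WT cells and none fell, against 42.3% of all genes called higher and 40.3% called lower. Gbp2 rose from 80.8 to 87.5 CPM in naive to 788, 1114 and 1022 CPM in activated WT libraries, which is 3.53 ± 0.13 on the log2 scale (Benjamini-Hochberg adjusted p = 4.40e-13 in edgeR's quasi-likelihood test). Gbp3 rose by 2.06 ± 0.12 (adjusted p = 1.30e-11). Among the regulators, Igtp rose from 199 to 217 CPM to 574 to 614 CPM (1.53 ± 0.07, adjusted p = 1.83e-12), Irgm1 from 110.2 to 116 CPM to 209 to 248 CPM (1.01 ± 0.07, adjusted p = 3.85e-10), and Irgm2 less (0.43 ± 0.11, adjusted p = 0.00164). None of these 5 genes overlapped between naive and activated WT cells, where 42.6% of all genes did not overlap in the higher direction.

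The chromosome 18 genes were higher in every activated than in every naive WT library. Iigp1 differed by 2.70 ± 0.10 on the log2 scale. Gm4951 went from 4 summed counts in naive to 485 in activated WT libraries, a ratio of 99.4 with an interval from 38.6 to 366, and Gm4841 from 8 to 265, a ratio of 27.2 with an interval from 13.6 to 63.6. Ifi47 and Gbp7 did not pass the test in WT, with 0.03 ± 0.11 (adjusted p = 0.812) and -0.05 ± 0.08 (adjusted p = 0.560).

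In KO cells 4 of the other 7 rose and 1 fell, against 42.3% and 39.8% of all genes. Gbp2 rose by 3.70 ± 0.13 (adjusted p = 2.70e-13), Gbp3 by 1.72 ± 0.11 (adjusted p = 8.61e-11), Igtp by 1.35 ± 0.07 (adjusted p = 1.01e-11) and Irgm1 by 0.82 ± 0.07 (adjusted p = 7.17e-09). Each differed from its WT rise by at most 0.34 on the log2 scale. The activated KO libraries were above the naive ones by 1.40 ± 0.10 for Iigp1, 1.87 ± 0.19 for Gm4951 and 0.46 ± 0.21 for Gm4841, and the groups overlapped for Gm4841. Gbp7 fell by 0.29 on the log2 scale (SE 0.08, adjusted p = 0.00355), while Irgm2 (-0.03 ± 0.11, adjusted p = 0.781) and Ifi47 (-0.12 ± 0.11, adjusted p = 0.314) did not pass. Without naive KO replicate 2 Irgm2 passed (-0.19, adjusted p = 0.0432), and without naive KO replicate 1 Ifi47 did (-0.24, adjusted p = 0.0485).

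**Figure D3:**
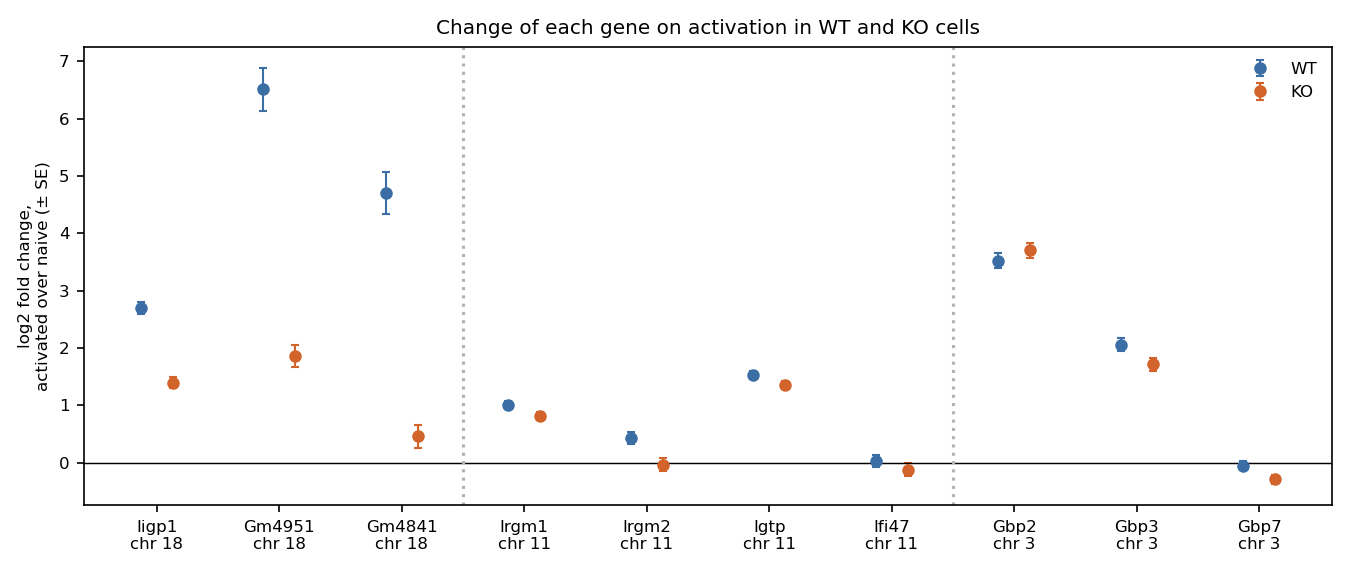
Log2 fold change of activated over naive cells for each gene in WT (blue) and KO (orange), with SE as whiskers (3 libraries per group). The WT point lies above the KO point by 1.30 for Iigp1, 4.64 for Gm4951 and 4.24 for Gm4841, and the other 7 genes have their points within 0.47 of each other.

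The difference between the KO and WT rises is the interaction of genotype and activation, which contains the naive genotype difference and so is a description here. It was -1.30 ± 0.14 for Iigp1, -4.64 ± 0.51 for Gm4951 and -4.24 ± 0.44 for Gm4841. For the other members it ran from -0.47 (Irgm2) to 0.17 (Gbp2). The count past the threshold was 3 of 10, each lower, against 2.52% of all genes. The naive KO libraries held Gm4841 at 5.21 to 9.11 CPM, beside 6.10 to 9.02 CPM in activated WT libraries. Iigp1 in naive KO libraries, at 91.4 to 111 CPM, lay below the 272 to 296 CPM of activated WT cells, and Gm4951 at 4.99 to 7.49 CPM lay below the 12.02 to 18.5 CPM of activated WT.

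Genes next to the chromosome 18 members were then read by position. F830016B08Rik, a further family member at 18:60288739-60303823 between Gm4841 and Iigp1, had 0 counts in every naive WT library and 9, 5 and 17 in the KO libraries. With WT set at the floor of 3 counts over the group and the KO counts taken as measured, KO was 10.8-fold higher. In forskolin cells it had 3, 7 and 3 counts in WT and 309, 187 and 98 in KO, a ratio of 35.0 with an interval from 20.3 to 66.1. In activated cells its counts were 12, 17 and 22 in WT and 37, 19 and 27 in KO, which overlap.

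Of 12 tested genes outside the family within 1 Mb of the chromosome 18 members, 1 was called higher in naive KO cells and 0 lower, and their median log2 fold change was 0.01. The gene called was Cd74, the invariant chain of MHC class II, at 3.35, 4.72 and 5.05 CPM in WT and 14.4, 13.3 and 24.7 CPM in KO (log2 fold change 1.999 ± 0.26). Cd74 is strongly expressed by B cells, whose marker sum was also higher in naive KO libraries, and their part was not tested. In activated cells Cd74 was at 92.2 to 119.8 CPM in WT and 236.3 to 257.1 CPM in KO (log2 fold change 1.19 ± 0.16). The closest tested gene on the far side of Iigp1, Smim3, had 0 counts in naive WT and 8 summed counts in naive KO, and was not called there. It was called lower in KO in activated (-0.92 ± 0.24) and in forskolin cells (-1.21 ± 0.31). Dctn4 and Rbm22, the next ones, had naive log2 fold changes of 0.08 and -0.13. In forskolin cells 4 of the 12 were higher and 2 lower, against 19.7% and 18.8% of all genes. In activated cells 2 were higher and 2 lower, against 5.89% and 9.04%, and the naive shares were 0.125% and 0.117%.
Around the chromosome 11 members, 0 of 33 genes outside the family were called in naive cells in either direction, and around the chromosome 3 members 0 of 4. In forskolin cells the figures were 4 higher and 6 lower of 35 on chromosome 11, and 1 and 1 of 5 on chromosome 3. Other family genes were higher in 5 of 6 cases on chromosome 11 and 1 of 1 on chromosome 3. The shares of all genes there were 19.7% higher and 18.8% lower.

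**Figure D4:**
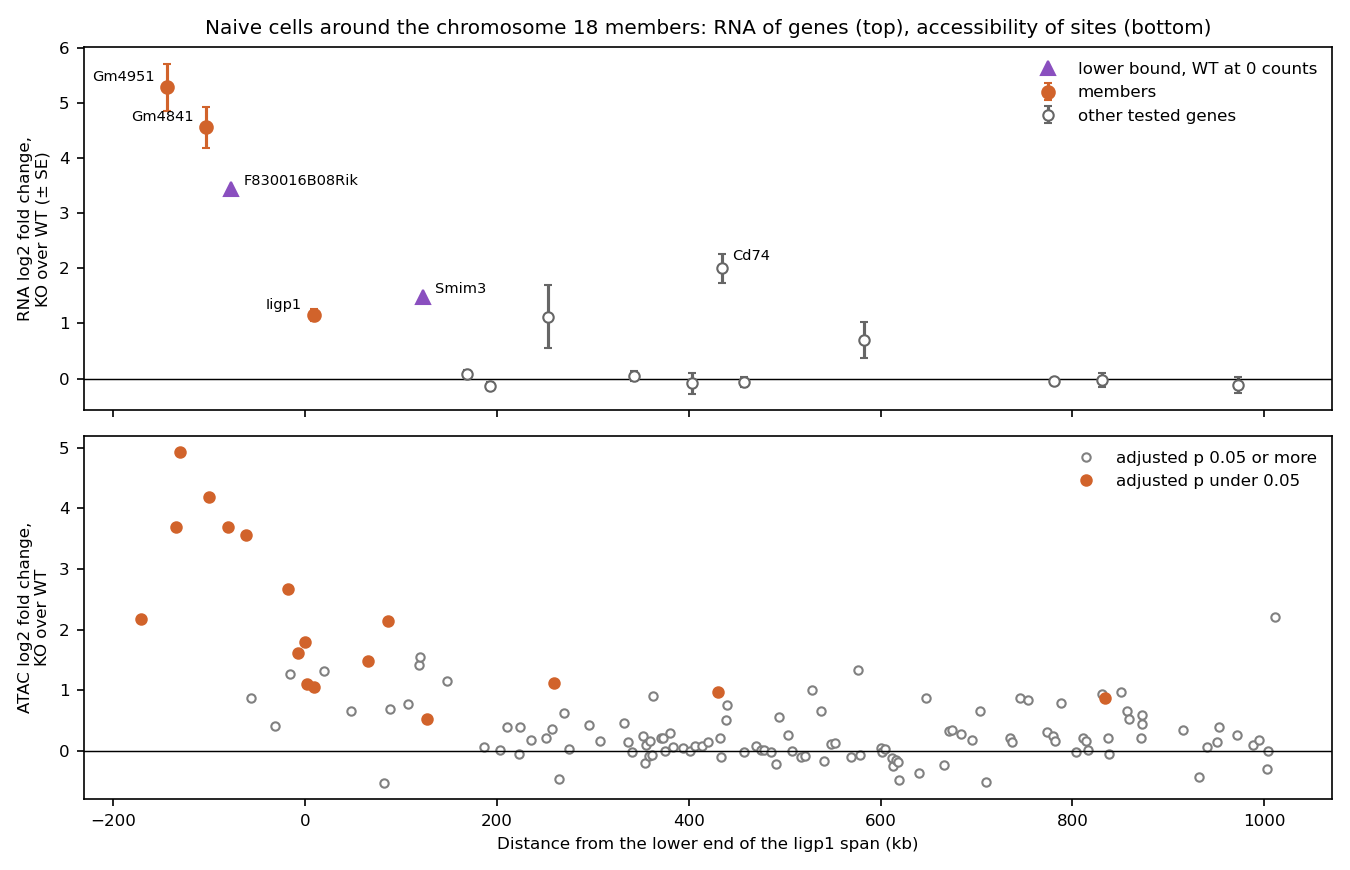
Naive cells around the chromosome 18 members by distance in kb from the lower end of Iigp1: log2 fold change of KO over WT for RNA of each tested gene at the middle of its span (top, with SE; triangles are lower bounds for the 2 genes with 0 counts in WT) and for accessibility of each ATAC site (bottom, filled where the adjusted p was under 0.05). Over the stretch that holds the members, from -171 to 19.7 kb, 11 of 15 sites were called higher, against 0.938% of all sites tested. Of these sites, 9 lie within 10 kb of a member, and 8 of the 9 were called higher. The others lie between Gm4841 and Iigp1. Of 118 sites outside the stretch, 6 were called higher. All of these 118 lie on 1 side, from 47.5 kb upward, so no site below the stretch is compared.

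Accessibility was read at ATAC sites within 10 kb of each gene, in libraries other than those used for RNA. Of 63 such sites, 9 belonged to the chromosome 18 genes and 54 to the others. The ATAC libraries held between 18522373 and 25318916 counts in sites. In naive cells 8 of the 9 chromosome 18 sites were called higher in KO and 0 lower, while 3 of the other 54 were higher, against 0.938% of all 110797 sites tested higher and 0.607% lower. All 9 had a positive log2 fold change, with a median of 1.80 and a range from 1.05 to 4.93, beside 0.21 for the other 54 sites and 0.07 for all sites. The chromosome 18 accessibility pattern was known when the genes were chosen and is no independent support of the RNA.

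The site at the end of the Gm4841 span, 18:60273165-60273565, was at 0.679, 0.442 and 0.682 CPM in naive WT and 8.90, 8.94 and 14.5 CPM in naive KO libraries, a log2 fold change of 4.18 ± 0.25. Within Gm4951 the site at 18:60238640-60239040 had 3, 0 and 5 counts in WT and 31, 21 and 53 in KO, a ratio of 13.5 with an interval from 6.59 to 32.002. The site at 18:60242710-60243110 had 1, 0 and 2 counts against 28, 23 and 47, a ratio of 33.5 with an interval from 11.1 to 165. Each KO library lay far above each WT library at these 3 sites, and KO replicate 3 was the highest.
At Iigp1 the naive differences were smaller. The site over the lower end of the gene, 18:60373332-60373732, was at 2.19, 1.92 and 1.84 CPM in WT and 5.999, 5.96 and 8.71 CPM in KO (1.80 ± 0.18), and the site 2.31 kb inside that end, 18:60375723-60376123, at 7.36, 6.39 and 7.98 CPM in WT and 14.0, 15.1 and 17.3 CPM in KO (1.11 ± 0.11). The site beyond the higher end of Iigp1, 18:60393102-60393502, was nearly closed in naive cells of both genotypes, with 2, 1 and 3 counts in WT and 5, 4 and 6 in KO, and was the one of 9 not called.
In the authors' deposited table the FDR was under 0.05 at 3 of the 63 sites, each higher in KO: the Gm4841 site (9.69e-08) and the sites at 18:60238640-60239040 (0.000280) and 18:60242710-60243110 (0.000146) in Gm4951. At that FDR 0.0108% of 110808 sites of the authors' deposited table were higher, and the other 6 chromosome 18 sites did not pass.

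The 3 naive sites called outside chromosome 18 were single sites among several at their gene. A site 8.67 kb before the start of Igtp, 11:58190689-58191089, had 4, 3 and 6 counts in WT and 19, 14 and 27 in KO (2.21 ± 0.48). A site 2.12 kb before the start of Irgm1, 11:48873342-48873742, was at 1.67, 1.38 and 1.77 CPM in WT and 2.45, 3.75 and 4.12 CPM in KO (1.13 ± 0.22). A site 2.19 kb into Gbp3, 3:142562350-142562750, had 1, 6 and 0 counts in WT and 10, 8 and 14 in KO (2.19 ± 0.53). None of them passed the FDR in the authors' deposited table.

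In activated cells 5 of 9 chromosome 18 sites were called higher in KO and 0 lower, against 10.9% of all sites called higher. The log2 fold changes ran from -0.25 to 0.78, with a median of 0.31, so they were smaller than in naive cells. The Gm4841 site was at 3.66, 4.04 and 3.68 CPM in WT and 4.86, 5.70 and 6.53 CPM in KO (0.59 ± 0.17). Leaving out single libraries moved the count of chromosome 18 calls between 0 (without activated KO replicate 3) and 5, with 1 left without activated WT replicate 3 and 2 without activated KO replicate 2, and none passed the FDR of the authors' deposited table, which 0.519% of all sites did in the higher direction. The other 54 sites split into 8 higher and 10 lower, against 17.5% of all sites called lower. Among those lower, a site 5.501 kb before Gbp7 (3:142524635-142525035) was at 6.65, 6.01 and 5.56 CPM in WT and 2.63, 2.61 and 3.00 CPM in KO, and a site 8.66 kb before Gbp2 (3:142611801-142612201) at 1.59, 1.53 and 1.58 CPM in WT and 0.704, 0.514 and 0.375 CPM in KO. The latter was the one site of the 63 past the FDR in the authors' deposited table for activated cells, where 4.64% of all sites were lower at that FDR.

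**Figure D5:**
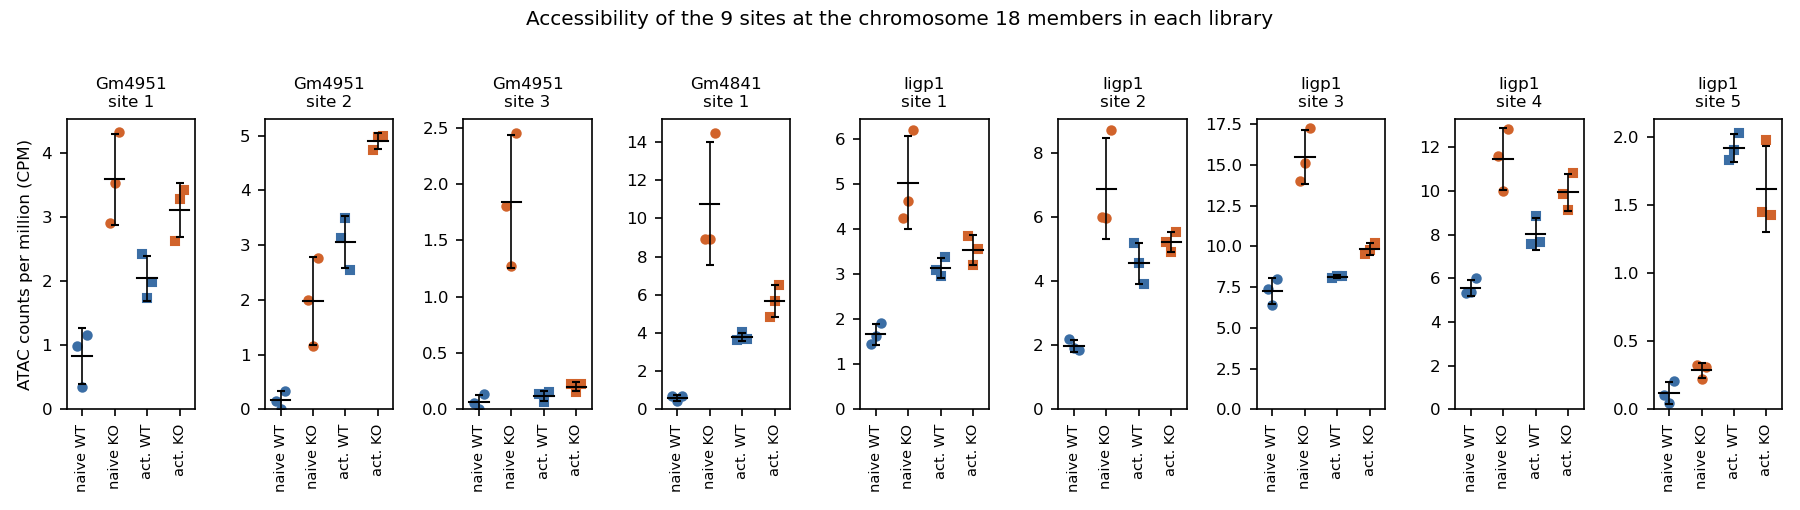
Accessibility in CPM of the 9 ATAC sites at Gm4951, Gm4841 and Iigp1, numbered along the chromosome, in each naive (circle) and activated (square) library of WT (blue) and KO (orange); bars are means and whiskers SD of 3 libraries, and vertical axes differ. Naive KO libraries lie above naive WT at every site, and site 3 of Gm4951 is at or under 0.225 CPM in every activated library.

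The chromosome 18 sites were more open in activated than in naive WT cells and differed both ways in KO, again as a description that shares the naive libraries. In WT 7 of 9 were called higher and 0 lower, and in KO 2 higher and 5 lower, against 51.4% and 38.5% of all sites higher and lower in WT and 49.7% and 38.8% in KO. The Gm4841 site differed by 2.67 ± 0.28 in WT and by -0.93 ± 0.16 in KO, where it was at 4.86 to 6.53 CPM after activation. The site at 18:60242710-60243110 in Gm4951 differed in KO by -3.16 ± 0.40, from 1.27 to 2.45 CPM to 0.158 to 0.225 CPM, and by 0.99 ± 0.94 in WT. The site beyond the higher end of Iigp1 was higher in both genotypes, by 4.04 ± 0.38 in WT and 2.48 ± 0.33 in KO.
These activation values depend on the scaling. With library totals in place of TMM factors the median of all sites moved up by 0.56 in WT and 0.60 in KO on the log2 scale, and the Iigp1 sites at 18:60366374-60366774, 18:60373332-60373732 and 18:60382397-60382797 in KO then changed sign, to 0.09, 0.20 and 0.40. In KO the chromosome 18 calls were then 3 higher and 1 lower, and the KO value at Gm4841 was -0.32. With TMM factors the median of the 9 sites was 1.20 in WT, beside 0.54 for all sites, and -0.41 in KO, beside 0.44. Whether the WT and KO activation changes of a site differ was not tested.

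The sites nearest the starts of the other members were open in naive cells and moved differently on activation. The site at the start of Gbp2, 3:142620706-142621106, with its centre 0.243 kb into the gene, went from 5.27, 5.65 and 4.77 CPM to 12.99, 12.6 and 12.5 CPM in WT (1.27 ± 0.10, adjusted p = 9.71e-11). It went from 6.13, 6.01 and 6.05 CPM to 16.4, 15.6 and 14.4 CPM in KO (1.35 ± 0.10, adjusted p = 2.43e-11). Igtp's start site, 11:58199335-58199735, which spans the ISRE and GAS letters shown above, rose by 0.49 ± 0.07 in WT (adjusted p = 2.70e-06) and 0.32 ± 0.07 in KO (adjusted p = 0.000438). That of Irgm2, 11:58214733-58215133, did not pass in WT (0.01 ± 0.10, adjusted p = 0.894) or KO (-0.12 ± 0.10, adjusted p = 0.243).
The site at the start of Irgm1, 11:48871281-48871681, rose by 0.32 ± 0.06 in WT (adjusted p = 6.03e-05) and 0.23 ± 0.06 in KO (adjusted p = 0.00151). That of Ifi47, 11:49076285-49076685, fell from 5.43, 6.04 and 4.98 CPM to 1.16, 0.814 and 1.13 CPM in WT (-2.41 ± 0.17, adjusted p = 1.03e-11) and as far in KO (-2.29 ± 0.16, adjusted p = 1.46e-11), while its RNA did not pass the test in either genotype. The site at the start of Gbp7, 3:142530124-142530524, fell by 0.50 in WT (SE 0.07, adjusted p = 2.51e-06) and 0.59 in KO (SE 0.07, adjusted p = 1.95e-07), and with library totals these values turned to 0.06 and 0.01, as that of Irgm2 in KO turned to 0.48. Gbp3's site, 3:142560376-142560776, was at 0.18 ± 0.08 in WT (adjusted p = 0.0285), which did not pass when any 1 of 7 libraries was left out, and at 0.06 ± 0.08 in KO (adjusted p = 0.424). With library totals its KO value was 0.67 ± 0.07 and passed (adjusted p = 1.66e-09 in edgeR's quasi-likelihood test), so this result depends on the scaling.

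The rest of both families was read from a list of 23 other IRG and GBP genes, of which 20 were tested in naive and activated cells. In naive cells 1 was higher in KO (F830016B08Rik) and 0 lower, with a median log2 fold change of 0.20. This call was lost in the fit of the 6 naive libraries alone and without naive KO replicate 1 or 3 or naive WT replicate 1 or 2. In activated cells 6 were higher and 0 lower: Gvin3, Gbp8, Gbp2b, Gbp4, Gbp6 and Gbp9, with a median of 0.08 over the list. The KO level of Gbp4 was 299.5 ± 13.8 CPM (SD, n = 3), against 213 ± 23.15 CPM for WT, and that of Gbp2b 4.99 ± 1.26 against 1.41 ± 0.523 CPM. In forskolin cells 16 of 19 were higher (Gbp4, Gvin1, Gbp11, Gvin2, Gvin3, Gbp6, Tgtp1, Gbp8, Gbp10, Tgtp2, Gm12250, Gbp9, Gbp5, 9930111J21Rik1, F830016B08Rik and Gm12185), 1 was lower (Irgq, -0.30 ± 0.06) and the median was 0.66. The larger forskolin differences of this list included Gvin2 (19.8 ± 3.41 against 2.01 ± 0.0445 CPM), Gbp11 (62.5 ± 6.38 against 15.7 ± 1.90 CPM) and Gbp4 (317 ± 8.71 against 138 ± 4.76 CPM). Tgtp1, an IRG effector with a near-identical copy, had a KO level of 35.5 ± 0.971 CPM against 17.4 ± 0.605 CPM for WT. The median of all genes was -0.01, 0.01 and -0.003 in the 3 conditions. Called higher in KO were 0.125%, 5.89% and 19.7% of all genes in naive, activated and forskolin cells. Called lower were 0.117%, 9.04% and 18.8%.

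Activation moved the list in both directions. In WT 11 of 20 rose and 7 fell, against 42.3% and 40.3% of all genes, and in KO 8 rose and 8 fell, near the 42.3% and 39.8% of all genes. Gbp5, which takes part in inflammasome activation, rose in WT from 29.0 ± 5.29 to 286 ± 28.3 CPM (log2 fold change 3.30 ± 0.12, adjusted p = 4.14e-13) and in KO by 3.10 ± 0.12 (adjusted p = 8.81e-13). Gvin3, of the very large inducible GTPases, fell in WT (-2.40 ± 0.07, adjusted p = 1.84e-15) and in KO (-1.96 ± 0.07, adjusted p = 2.05e-14).

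Genes of interferon gamma signalling were read for the same libraries. Of 12 tested, edgeR called 0 in naive cells, where 2 had an unadjusted p under 0.05 and DESeq2 called 1, lower in KO. In activated cells 1 was higher in KO, the transcription factor Irf1 (306 ± 19.3 against 237 ± 19.0 CPM), with 2 higher without activated WT replicate 2, and 6 were lower, against 9.04% of all genes (3 without activated KO replicate 3). Those lower included the receptor chains Ifngr1 (15.75 ± 1.83 against 27.0 ± 1.70 CPM) and Ifngr2, and the ligand Ifng, with 127, 74 and 84 counts in KO and 347, 161 and 190 in WT. Ifng had 0 counts in every naive library, and 0 to 3 counts in each forskolin library. In forskolin cells 5 of 11 were higher and 3 lower, against 19.7% and 18.8% of all genes. Ifngr1 was lower in KO, 93.4 ± 4.37 against 1171 ± 23.9 CPM (log2 fold change -3.65 ± 0.04), while Nlrc5, a transactivator of MHC class I genes, was higher, 375 ± 13.4 against 235 ± 12.5 CPM (0.67 ± 0.04). The median log2 fold change of the list was 0.00048 in naive, -0.28 in activated and 0.24 in forskolin cells. Irf1 was also higher in forskolin KO cells, 171 ± 6.33 against 126 ± 4.45 CPM (log2 fold change 0.44 ± 0.04). In these cells Ifngr1 differed in the opposite direction to 9 of the 10 GTPases, and Irf1 in the same direction. The part of either gene was not tested.

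Other interferon genes followed the forskolin pattern in part. Of 7 type I interferon signalling genes, edgeR and DESeq2 called 0 in naive cells (1 at an unadjusted p under 0.05), 1 was lower in activated KO cells (the receptor chain Ifnar1, 61.8 ± 2.98 against 139 ± 11.7 CPM) and 3 were lower in forskolin KO cells (Ifnar1, Irf7 and Ifnar2), with medians of 0.02, -0.22 and -0.11. Of 32 other interferon-stimulated genes tested, edgeR called 0 in naive cells (0 at an unadjusted p under 0.05, 0 by DESeq2) and 0 in activated cells (2 at an unadjusted p under 0.05, 1 by DESeq2), where the medians were -0.04 and -0.55. The edgeR test called 14 of them higher in forskolin KO cells and 0 lower, with a median of 0.22 (11 higher with DESeq2). Examples were Ifi203 (294.5 ± 8.91 against 174 ± 11.7 CPM) and Bst2, a restriction factor for budding virus (48.6 ± 1.48 against 32.6 ± 3.395 CPM). Of 12 antigen processing genes, edgeR and DESeq2 called 0 in naive (0 at an unadjusted p under 0.05), 3 were higher in activated (Psmb10, Psmb9 and Psme2) and 11 higher in forskolin KO cells, with medians of 0.09, 0.12 and 0.22. Beside these counts, 19.7% of all genes were called higher and 18.8% lower in forskolin KO cells. In activated KO cells the shares were 5.89% and 9.04%. All of these lists were drawn up with earlier results in view.

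The genes whose pattern over the 12 naive and activated libraries was closest to Iigp1, by the root mean square difference of centred log2 CPM, were Gbp3 (0.28), Rnf216 (0.29), E2f2 (0.30), Sh3bp2 (0.30) and Cdkn2c (0.31). Gbp3 is a member, and was the member outside chromosome 18 with the widest naive difference between genotypes. Closest to Igtp were Lclat1 (0.07), Alg6 (0.08), Utp11 (0.09), Pdia6 (0.09) and Wdr74 (0.09).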

How the data were processed

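RNA libraries (NEBNext Ultra II kit) and ATAC libraries (Active Motif kit) were made from total RNA and nuclei of the same kinds of cells, per the labels' protocols. The authors deposited whole-number counts per gene in 1 table for naive and activated cells and another for forskolin cells, and whole-number counts per ATAC site in 2 tables of 110808 sites. The deposited ATAC tables also hold the authors' log2 group means and log2 fold, which are not scaled to depth, with the p-value and the FDR that the authors computed per site. The genome build was mm10, per the submitters' processing notes; aligner, counter and peak caller are not given in the sources used here. For naive and activated cells, 1314 features without a symbol, with at most 0.159% of a library's counts, were left out.

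Counts were tested with edgeR 4.0.16 in R 4.3.3 (filterByExpr, TMM factors, robust quasi-likelihood fit, Benjamini-Hochberg adjustment over all genes or sites, threshold 0.05). The 12 naive and activated RNA libraries, the 6 forskolin libraries and the 12 ATAC libraries were fitted separately, with a mean per group. Genotype values are given as descriptions, with counts past a threshold and the authors' FDR at some sites, but no p-value of these fits for a single gene or site. Activation was tested for the genes outside chromosome 18. Few counts were compared as ratios with exact conditional 95% intervals. The scripts were tested on simulated data. Alternatives were other scalings, filters and tests (DESeq2 1.42.0, limma 3.58.1), a replicate block, another window and leaving out each library. The 10 genes, the gene lists and the markers were chosen with earlier results of these data known. Named are the 10 genes, the other family genes that passed, and up to 3 genes of smallest p per pathway list, together with Irf1. Neighbours within 1 Mb are named where they passed in naive cells or lay next beyond Iigp1, and others that passed are counted only. The 5 genes most alike in pattern are named, and per gene the ATAC site nearest its start and that of smallest p. ATAC sites within 10 kb of a gene were assigned to it, and promoter letters come from RefSeq (GRCm38.p6). No library was identical to another of its group (chi-square per degree of freedom 1.14 to 17.8). A gene of one pathway list and a gene of one marker list are not reported here, and the values of those lists were computed without them. Libraries with the same replicate number deviated from their group means together in every pair for activated WT and KO RNA (correlations 0.557, 0.280 and 0.236). The same held for naive and activated KO RNA (0.360, 0.180 and 0.126). The numbers were read as possible pairs there, from the data and not the labels. Activated WT replicate 3 correlated more with KO replicate 2 (0.254) than with KO replicate 3, so the pairs are not settled. The main fits carried no pairing, and the replicate block was an alternative. In the other comparisons at least 1 pair was at or under 0.1, and the numbers were not read as pairs.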

Additional observations from a re-analysis of the deposited data

Results flagged for a closer look

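For 3 genes the genotype difference was smaller in activated than in naive cells, past the threshold for the interaction of genotype and activation in edgeR. The difference of KO minus WT in activated cells less that in naive cells was -1.30 for Iigp1, -4.64 for Gm4951 and -4.24 for Gm4841 on the log2 scale. The genes were chosen with the naive genotype difference in view, which the interaction contains, so these values are a description and no independent test, and for Gm4951 and Gm4841 the values rest on 4 and 8 summed counts in naive WT libraries.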

How the results depend on the processing

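The numbers of the 10 genes called in naive, forskolin, WT activation, KO activation and interaction comparisons stayed within 1.5 times under every alternative run. In activated cells the 1 gene called, higher in KO, became 2 (both higher) with DESeq2 or upper-quartile scaling and 3 (2 higher, 1 lower) in a fit of the 6 activated libraries alone, and ranged from 0 (without activated KO replicate 3) to 2 (1 higher, 1 lower, without naive KO replicate 2). ATAC sites at the genes numbered 11 in naive cells, against 7 within 1 kb, 3 by the authors' FDR and 8 to 13 without single libraries. In activated cells they numbered 23, against 15 within 1 kb, 12 at an FDR of 0.01, 1 by the authors' FDR and 12 to 27 without single libraries (12 without KO replicate 3, 14 without WT replicate 3, 15 without KO replicate 2). Activation sites numbered 55 in WT and 53 in KO, against 30 and 29 within 1 kb, where fewer sites are read. With library totals the KO activation values of Iigp1 sites turned to 0.0911, 0.198 and 0.399, and that of the Irgm2 start site to 0.483. Those of the Gbp7 start site turned to 0.0148 in KO and 0.0643 in WT. The KO value of the Gbp3 start site became 0.671 and passed the threshold. The cause was not tested. Over all genes, 15 were higher and 14 lower in naive KO cells, against 37 and 22 with DESeq2 and 6 and 5 without naive WT replicate 2. In activated cells 706 and 1083 became 987 and 843 with upper-quartile scaling, so that 53.9% rather than 39.5% of calls were higher, and in the interaction 42.8% rather than 31.8%. With library totals 67.3% of ATAC activation calls in WT and 68.3% in KO were higher, rather than 57.2% and 56.2%. Over all sites, 1039 and 672 in naive cells became 12 and 7 by the authors' FDR and 607 and 958 in the 6 naive libraries alone, and 12049 and 19440 in activated cells became 575 and 5138.

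Over all comparisons, 17 of 27 pairs with the same replicate number had a correlation of deviations above 0.1 (range 0.0036 to 0.557), and 23 of 27 correlated best with their own number. With the replicate block 2 of the 10 genes were called in activated cells in place of 1, and the counts for the 10 genes in the other RNA comparisons were as without it, at 3, 9, 8, 8 and 3. Depth limits Gm4951 and Gm4841 in WT naive and forskolin libraries, where 0 to 5 counts stand behind each value.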
